A study of Mus musculus with 6 samples.

Results

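The angiopoietin-like family and the lipoprotein lipase system are represented here by 7 genes, *Angptl2*, *Angptl4*, *Angptl6*, *Angptl7*, *Lpl*, *Gpihbp1* and *Lmf1*, found by Ensembl identifier among the 54532 genes of the kidney expression table. Whole kidneys came from male C57BL/6 mice, and both groups carried KsprtTA and received chow with doxycycline at 600 mg/kg for 4 days. KSPAPN mice carried TRE-Adiponectin in addition, whereas Control mice did not, and the sample labels give the Control genotype as WT. The Ksp promoter drives the doxycycline-dependent activator rtTA in epithelial cells along the nephron, proximal tubule and collecting duct included. The transgene is therefore expressed in epithelium, while the kidney libraries also hold vessels and stroma. Each group had 3 RNA-seq libraries, and each library was a pool of 3 mice, so that replicate error here means variation from pool to pool. No source used here gives the ages of these mice. *Angptl7* was selected on its decrease in this same comparison, so its values are given as a description with no test. The other 6 genes were listed for their family or their role around the lipase, also with earlier results of these data known. Their p-values are to be read with that limit.

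Lipoprotein lipase, encoded by *Lpl*, splits the triglycerides of circulating lipoproteins at the wall of capillaries and releases fatty acids to the tissue. The enzyme is folded in the endoplasmic reticulum with the help of LMF1 and is carried to the capillary lumen by GPIHBP1, a protein anchored to endothelial cells. Several angiopoietin-like proteins, among them ANGPTL4 and ANGPTL8, inhibit the lipase, whereas ANGPTL2, ANGPTL6 and ANGPTL7 are secreted relatives best known for other roles. Fatty acids are a main fuel of the proximal tubule.

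Counts on genes totalled between 17183358 and 20871173 per library. *Adipoq*, the gene of the transgene, had 2, 0 and 2 counts in the Control libraries and 24629, 17483 and 26811 in the KSPAPN libraries, so every library matched its label. One protocol text in the labels names liver, but the proximal tubule marker *Slc34a1* averaged 1212 FPKM in Control and *Umod*, a marker of the thick ascending limb, 678 FPKM. FPKM, used below for levels, are fragment counts scaled by gene length and sequencing depth, and allow genes of different length to be compared. Differences are log2 fold changes of KSPAPN against Control with their standard error (SE), fitted with edgeR on the counts of all 16017 genes tested, and a gene was called at an adjusted p under 0.05. Across all genes tested, the median difference was 0.01 on the log2 scale. At that threshold 2.25% of all genes tested were lower and 0.393% were higher in KSPAPN.

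*Angptl7* was lower in KSPAPN kidneys, about 10.5-fold by the fitted difference. Its level was 25.7, 32.3 and 9.89 FPKM in Control replicates 1 to 3. The KSPAPN replicates held 0.498, 1.14 and 4.81 FPKM. All 3 KSPAPN pools lay below all 3 Control pools, although replicate 3 was the lowest of the Control pools and the highest of the KSPAPN pools. The means were 22.6 ± 11.5 FPKM in Control and 2.15 ± 2.33 FPKM in KSPAPN (SD, n = 3 each), a coefficient of variation of 50.9% and 108%. The pools therefore differed among themselves more widely for *Angptl7* than for *Lpl* or *Lmf1*. The values rested on 1027, 1210 and 375 counts in Control and on 25, 45 and 215 counts in KSPAPN. The log2 fold change was -3.40 (SE 0.65), number 4 from the lowest (4 of 16017) of all genes tested and the lowest (1 of 11162) of the protein-coding genes with a mean of at least 1 FPKM. Without KSPAPN replicate 3 it was -4.82, and leaving out any of the other 5 libraries gave values no closer to 0 than -2.89. In whole kidney, fewer cells that express a gene and less RNA per cell cannot be told apart.

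**Figure D1:**
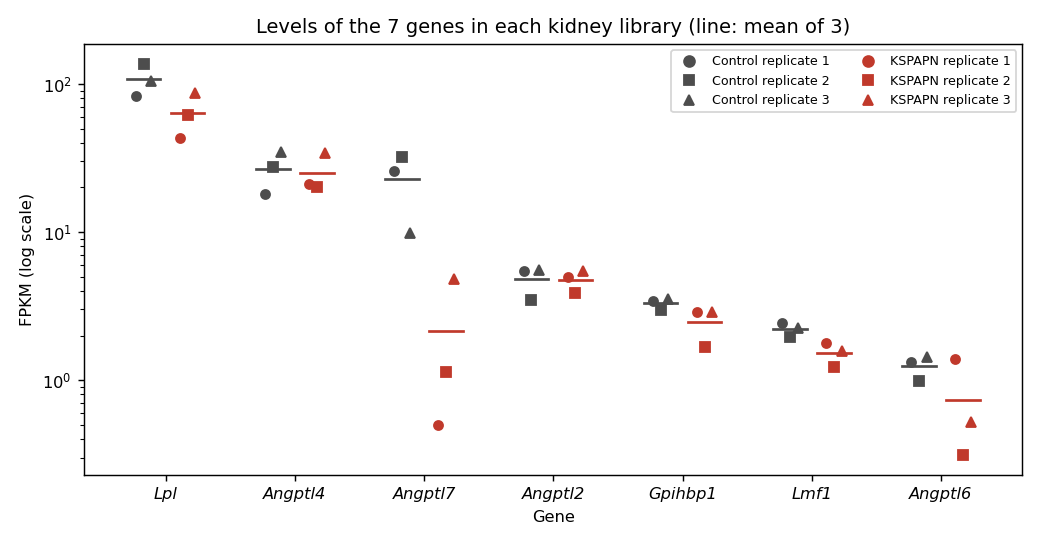
FPKM of the 7 genes on a log axis, with 1 symbol per library and a line at the mean of the 3 libraries of a group, Control in grey and KSPAPN in red. *Angptl7* sits between 9.89 and 32.3 in Control and between 0.498 and 4.81 in KSPAPN, while the points of *Angptl2* and *Angptl4* lie at the same height in both groups.

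*Angptl7* lies on the minus strand at chr4:148495183-148500460 (GRCm38, GENCODE M21), inside an intron of *Mtor*, which is transcribed from the opposite strand over chr4:148448611-148557683. The exons of *Angptl7* and *Mtor* share 0 bases. *Mtor*, the kinase of the nutrient-sensing mTOR complexes, was at 25.5 ± 2.12 FPKM in Control and 18.7 ± 3.32 FPKM in KSPAPN (SD, n = 3 each), a difference of -0.44 on the log2 scale (SE 0.13, edgeR adjusted p = 0.0989). Since no source used here gives the strandedness of the libraries, reads from unspliced *Mtor* RNA could not be told apart from *Angptl7* reads, and their part was not tested. The ratio of *Angptl7* to *Mtor* FPKM was 0.921, 1.32 and 0.411 in Control and 0.0335, 0.0552 and 0.234 in KSPAPN. This ratio carries the same *Angptl7* values on which the gene was chosen, and nothing is read from it. The 250 bases just before the RefSeq start of *Angptl7* (chr4:148500463-148500712, GRCm38.p6, minus strand, written 5′ to 3′) are shown because the gene has a start of its own within that intron, and none of them falls in an *Mtor* exon.
Angptl7 upstream stretch: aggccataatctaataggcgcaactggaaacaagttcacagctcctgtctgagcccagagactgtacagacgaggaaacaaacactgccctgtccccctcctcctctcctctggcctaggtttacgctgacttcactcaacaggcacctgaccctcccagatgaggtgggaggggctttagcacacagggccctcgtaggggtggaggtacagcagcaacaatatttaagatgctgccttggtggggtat

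This stretch was searched on both strands for 5 motifs common in promoters, and no match was found, so no base is in capitals. The core promoter motif with the letters TATAAA is present in 12.4% of 32851 RefSeq promoters of the same length. A further promoter motif, the letters CCAAT, is in 33.8% of them, and 14.0% hold the nuclear receptor half-site, whose letters are AGGTCA. The glucocorticoid half-site was searched as AGAACA, which 16.1% of promoters hold, and the E-box as CACGTG, which 6.02% hold. Promoters of *Angptl2*, *Angptl6* and *Lmf1* were in the same table, and these also held none of the 5. A missing match says only that these letters are not in the window.

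*Lpl* was the most abundant of the 7 genes in both groups. It was at 82.9, 137 and 105 FPKM in Control and at 42.9, 61.6 and 86.6 FPKM in KSPAPN. The groups overlapped, because KSPAPN replicate 3 lay above Control replicate 1. The means were 108 ± 27.3 and 63.7 ± 21.95 FPKM (SD, n = 3 each), and the log2 fold change was -0.76 (SE 0.24). This difference passed an unadjusted p (0.00897) but not the adjustment over all genes (edgeR adjusted p = 0.122). It was negative without any single library, between -1.04 and -0.53. *Lpl* lies at chr8:68880491-68907448 on the plus strand (GRCm38).

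*Lmf1*, the chaperone needed for an active lipase, was lower in every KSPAPN pool than in any Control pool. Its level was 2.43, 1.96 and 2.26 FPKM in Control and 1.78, 1.23 and 1.57 FPKM in KSPAPN. The log2 fold change of -0.53 (SE 0.15) had an unadjusted p of 0.00617 and an edgeR adjusted p of 0.102. Tested with DESeq2, which called 5.11% of its genes lower, *Lmf1* passed the threshold with an adjusted p of 0.0335, and without KSPAPN replicate 1 edgeR called it with an adjusted p of 0.0379. Over the 14 alternatives its log2 fold change stayed between -0.65 and -0.35 and 4 of them called it, 1 of which was the fit without a filter on low counts, whose p-values leave out each gene's own spread. In the others adjusted p lay between 0.0281 and 0.349. *Lmf1* lies at chr17:25579085-25662826 on the plus strand.

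*Gpihbp1*, the endothelial carrier of the lipase, was at 3.40, 2.98 and 3.54 FPKM in Control and 2.89, 1.67 and 2.89 FPKM in KSPAPN. The groups did not overlap, but the lowest Control pool and the highest KSPAPN pool were close. Its log2 fold change was -0.40 (SE 0.23, edgeR adjusted p = 0.381) and did not pass the test. It was -0.18 without KSPAPN replicate 2, the lowest pool, and -0.24 once the GC and length trend was removed. *Gpihbp1* lies at chr15:75596628-75599481 on the plus strand. To set the carrier against the vessels that express it, its FPKM was divided by the mean FPKM of 10 endothelial markers (*Pecam1*, *Cdh5*, *Kdr*, *Flt1*, *Emcn*, *Plvap*, *Egfl7*, *Tie1*, *Esam* and *Cldn5*) in the same library. *Plvap* weighed most in this mean, with 66.1 ± 14.7 FPKM in Control and 54.5 ± 9.22 FPKM in KSPAPN (log2 fold change -0.27, SE 0.17). The ratio of *Gpihbp1* to the mean was 0.221, 0.272 and 0.263 in Control and 0.216, 0.161 and 0.233 in KSPAPN. The groups overlapped, and the log2 difference of -0.32 gave p = 0.2 in a two-sided exact permutation test (adjusted p = 0.3 over the 3 ratios tested). Without KSPAPN replicate 2 that difference was -0.16. With 3 libraries against 3 this test cannot give a p under 0.1.

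*Angptl4*, the inhibitor that PPARs induce in fasting, did not pass the test. It was at 18.1, 27.5 and 34.4 FPKM in Control and at 21.05, 20.1 and 34.3 FPKM in KSPAPN. Replicate 3 was the highest pool in both groups, and the ranges covered nearly the same span. Its difference was -0.08 on the log2 scale (SE 0.24, edgeR adjusted p = 0.893) and ranged from -0.37 to 0.15 when single libraries were left out. *Angptl4* lies at chr17:33773750-33781830 on the minus strand. The ratio of *Angptl4* to *Lpl* FPKM, inhibitor to enzyme, was 0.219, 0.200 and 0.327 in Control and 0.491, 0.326 and 0.396 in KSPAPN. Its mean was 1.64-fold higher in KSPAPN, but Control replicate 3 lay just above KSPAPN replicate 2 and the exact permutation test gave p = 0.2 (two-sided, adjusted p = 0.3). For *Lpl* to *Gpihbp1*, enzyme to carrier, the ratio was 24.4, 46.1 and 29.7 in Control and 14.8, 36.9 and 30.0 in KSPAPN. This difference (-0.34 on the log2 scale, exact permutation p = 0.6, two-sided, adjusted p = 0.6) turned to 0.05 without KSPAPN replicate 1.

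**Figure D2:**
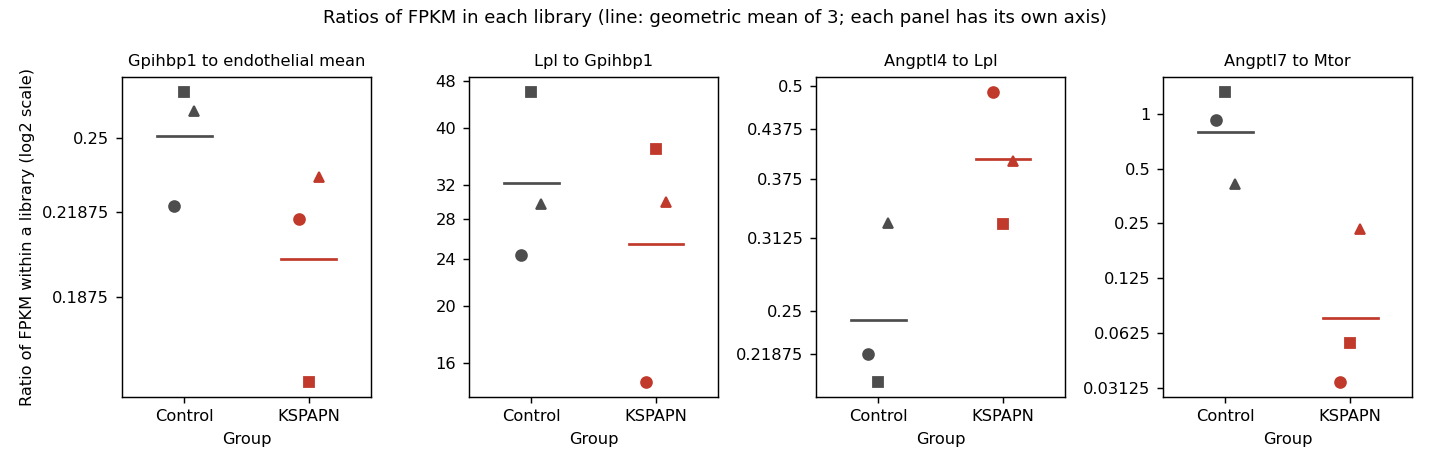
Ratios of FPKM within a library on log2 axes, 1 panel per ratio with its own range, Control in grey and KSPAPN in red, 1 symbol per library and a line at the geometric mean of 3 libraries. In the first 3 panels the groups overlap, with 0.200 to 0.327 against 0.326 to 0.491 for *Angptl4* to *Lpl*, and the last panel is a description, since *Angptl7* was chosen for its decrease.

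*Angptl2*, a secreted protein linked to inflammation in adipose tissue, was at 5.48, 3.48 and 5.52 FPKM in Control and 4.94, 3.87 and 5.48 FPKM in KSPAPN. Replicate 2 was the lowest pool in both groups. The log2 fold change was -0.01 (SE 0.19, edgeR adjusted p = 0.986), and its sign turned with the processing, to 0.06 with total counts only. *Angptl2* (chr2:33216069-33247717, plus strand) lies inside *Ralgps1* on the opposite strand without shared exonic bases, and *Ralgps1* had a log2 fold change of 0.36 (SE 0.12, adjusted p = 0.138). *Angptl6*, also called angiopoietin-related growth factor, was the least abundant of the 7 genes. It had 39, 27 and 40 counts in Control and 51, 9 and 17 in KSPAPN, or 1.33, 0.984 and 1.44 against 1.38, 0.311 and 0.519 FPKM. KSPAPN replicate 1 reached the Control range and the other 2 pools lay below it. Its log2 fold change was -0.72 (SE 0.50, edgeR adjusted p = 0.477) and ranged from -1.56 without KSPAPN replicate 1 to -0.37 without KSPAPN replicate 2. *Angptl6* (chr9:20873808-20879727, minus strand) shares 265 exonic bases, 16.8% of its own, with *A230050P20Rik* on the opposite strand, so its few counts are uncertain. *A230050P20Rik* itself had a log2 fold change of -0.08 (SE 0.25, adjusted p = 0.892).

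Of the 6 genes other than *Angptl7*, 0 passed the adjusted threshold in either direction with edgeR, beside the 2.25% and 0.393% of all genes given above. At an unadjusted p under 0.05, 2 of the 6 were lower (*Lpl* and *Lmf1*) and 0 were higher, beside 11.2% and 7.52% of all genes tested. DESeq2 called 1 of the 6. All 6 fitted differences were below 0, with a median of -0.46, beside a median of 0.01 and 48.1% below 0 over all genes tested, but those of *Angptl2* and *Angptl4* turned sign in some alternatives. The 6 were chosen with earlier results of these data known, so their shared sign is a description. The related lists given below were mixed. Of the rest of the family with the angiopoietins, 5 tested genes were above 0 and 2 below. Of the further lipase system genes, 10 were above 0 and 9 below. In FPKM, 3 of the 7 genes (*Angptl7*, *Lmf1* and *Gpihbp1*) had every KSPAPN pool below every Control pool, beside 13.5% of all genes tested, and *Angptl7* was chosen on that difference.

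**Figure D3:**
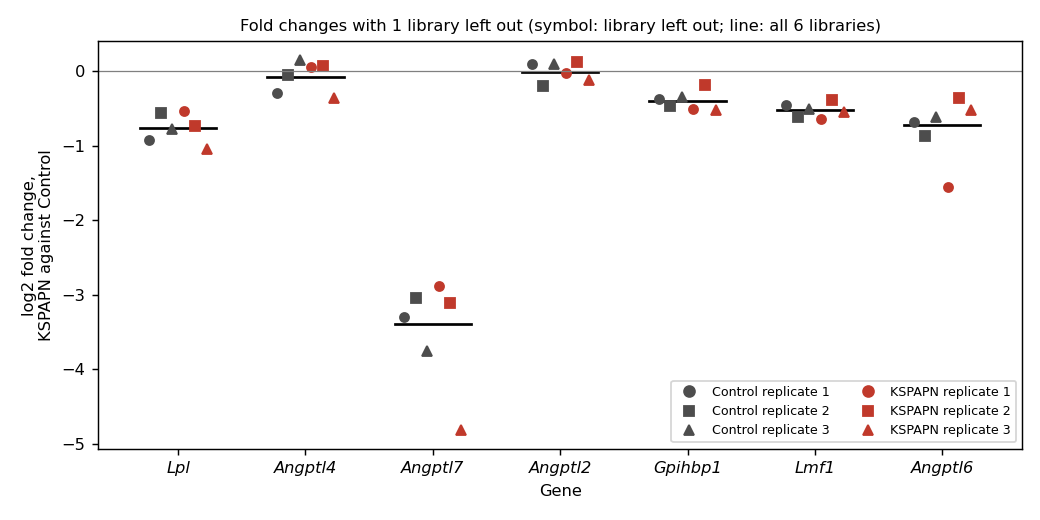
The log2 fold change of each of the 7 genes with all 6 libraries (black line) and with 1 library left out (symbols, each named for the library left out). *Angptl7* stays between -4.82 and -2.89 and *Lpl* between -1.04 and -0.53, while *Angptl2* and *Angptl4* fall on both sides of 0.

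The order of the levels in Control was *Lpl*, *Angptl4*, *Angptl7*, *Angptl2*, *Gpihbp1*, *Lmf1* and *Angptl6*, from the highest mean FPKM to the lowest. The ranges of *Angptl4* and *Angptl7* overlapped, as did those of *Angptl2* and *Gpihbp1*, and the other neighbours were apart. In KSPAPN *Angptl7* stood after *Lpl*, *Angptl4*, *Angptl2* and *Gpihbp1*. From *Gpihbp1* down to *Angptl6* each gene overlapped the next in KSPAPN, so the order of the last 4 was not resolved by these pools. Replicate 2 was the lowest pool of both groups for *Angptl2*, *Angptl6*, *Gpihbp1* and *Lmf1*, that is 4 of 7 genes, and for 8 of the 10 endothelial markers, beside 14.95% of all genes tested. The part of this shared low pool in the values of the 4 genes was not tested.

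Among the rest of the family, 0 genes passed the test. *Angptl8*, a lipase inhibitor, held 1.85 ± 0.756 FPKM in Control against 1.57 ± 0.538 in KSPAPN (SD, n = 3 each), a log2 fold change of -0.21 (SE 0.41, edgeR adjusted p = 0.828) that turned to 0.16 without Control replicate 3. *Angptl1* held 0.153 ± 0.114 FPKM in Control against 0.202 ± 0.0215 in KSPAPN, a difference of 0.41 on the log2 scale (SE 0.56, edgeR adjusted p = 0.741). In the list of family members, the angiopoietins *Angpt1* and *Angpt2* and their receptor genes *Tek* and *Tie1*, 7 of 8 genes were tested and 0 passed at either the adjusted or the unadjusted threshold, with a median log2 fold change of 0.19. *Angpt4* was too low to be tested. These relatives also lie inside other genes, *Angptl1* in *Ralgps2* and *Angptl8* in *Dock6*, and none of the 5 host genes listed, *Mtor* and *Ralgps1* included, passed the adjusted threshold with edgeR. DESeq2 called *Mtor* lower, with an adjusted p of 0.0247. Of 4 genes listed as receptors of angiopoietin-like proteins (*Pirb*, *Itga5*, *Itgb1* and *Itgb5*), 0 passed it, and *Itgb1* was higher at an unadjusted p under 0.05 (log2 fold change 0.25, SE 0.09).

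Of 23 further genes of the lipase system (activating and inhibiting apolipoproteins, other lipases, proprotein convertases and lipoprotein receptors), 19 were tested, 0 passed the adjusted threshold and the median log2 fold change was 0.05. At an unadjusted p under 0.05, 4 were lower and 1 was higher, beside 11.2% and 7.52% of all genes tested. These genes are named after their values were seen. *Apoe*, the ligand by which remnant particles are taken up, went from 62.8 ± 28.2 to 35.0 ± 3.95 FPKM (log2 fold change -0.84, SE 0.24). Control replicate 1 stood apart, with 95.3, 46.1 and 46.9 FPKM in Control and 39.4, 33.9 and 31.7 FPKM in KSPAPN. *Vldlr*, a receptor for triglyceride-rich particles, went from 10.1 ± 0.690 to 7.77 ± 0.884 FPKM (-0.38, SE 0.10). The lipase inhibitor gene *Apoc3* had a log2 fold change of -0.56 (SE 0.22), and *Furin*, a convertase that cleaves the lipase and ANGPTL proteins, one of -0.36 (SE 0.13). The 1 gene in the other direction was *Sort1*, a sorting receptor (0.37, SE 0.16). *Apoc2*, the obligate activator of the lipase, had 0 counts in every library, which allows up to 0.144 to 0.175 CPM at a limit of 3 counts. In GENCODE M21 it shares 646 exonic bases, 79.5% of its own, with *Gm44805* on the same strand, which was also at 0, so this 0 cannot be read as a lack of expression.

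Among 16 regulators of *Angptl4* and *Lpl* and known PPAR target genes, 14 were tested, of which 2 fell and 1 rose at the adjusted threshold, beside 2.25% and 0.393% of all genes tested. At an unadjusted p under 0.05, 7 were lower and 1 was higher, beside 11.2% and 7.52% of all genes tested. Of the 14 fitted differences, 12 were below 0 and 2 above, in a list drawn up with earlier results of these data known. The median log2 fold change of this list was -0.33. *Cyp4a14*, a fatty acid omega-hydroxylase, was at 10.95, 25.1 and 9.98 FPKM in Control and 2.62, 2.36 and 2.75 FPKM in KSPAPN (log2 fold change -2.56, SE 0.32, edgeR adjusted p = 0.00613). *Cyp4a10*, of the same enzyme family, was at 97.9, 110 and 91.4 FPKM in Control and 58.7, 57.2 and 63.9 FPKM in KSPAPN (-0.73, SE 0.10, edgeR adjusted p = 0.00741). Neither gene overlapped between groups, and both passed in all 14 alternatives, but genes of this family resemble each other and could share reads. *Hif1a*, the oxygen-regulated transcription factor, rose from 14.7 ± 1.24 to 19.6 ± 0.923 FPKM (0.41, SE 0.09, edgeR adjusted p = 0.0451), a call lost in 8 of the 14 alternatives, where adjusted p reached 0.206. *Angptl4*, itself a PPAR target, had a log2 fold change of -0.08 beside these. Over the 5 lists together, 49 of 56 genes were tested, 1 was higher and 2 were lower at the adjusted threshold, and the median log2 fold change was -0.04.

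**Figure D4:**
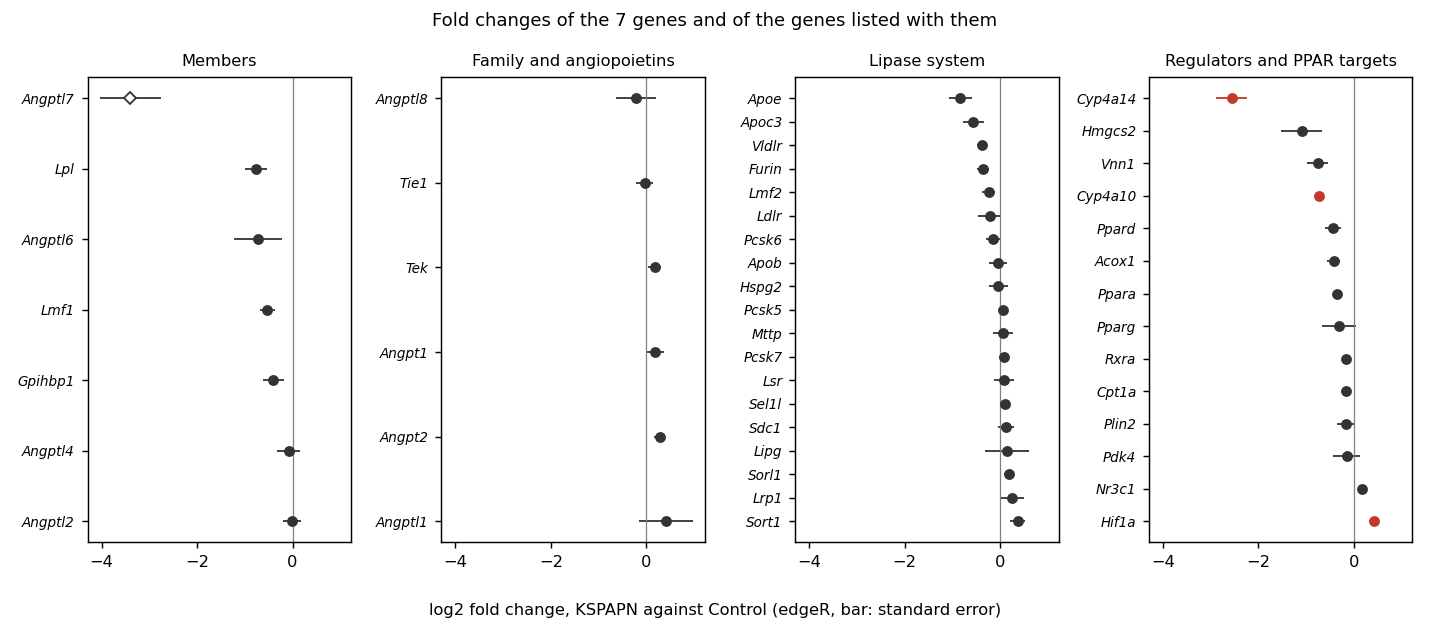
log2 fold changes of KSPAPN against Control (points) with their SE (bars) for the 7 genes and for reported genes of 3 of the 5 lists described with them, red where the adjusted p was under 0.05 and an open diamond for the untested *Angptl7*. *Angptl7* at -3.40 and *Cyp4a14* at -2.56 lie farthest from 0, and the 6 other members lie between -0.76 and -0.01.

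Markers of the cell types in whole kidney were read beside these genes. The summed FPKM of the 10 endothelial markers, the cells that carry GPIHBP1, was 110 to 154 in Control and 104 to 134 in KSPAPN, and 0 of the 10 passed. The 10 adipocyte markers summed to 45.7 to 49.8 FPKM in Control and 43.5 to 44.0 in KSPAPN, largely through *Pnpla2*, which kidney cells also express (34.8 ± 1.87 and 28.5 ± 1.64 FPKM). Of the adipocyte markers, *Lep* was between 0 and 0.0128 FPKM and *Plin1* between 0.00924 and 0.118 FPKM. *Cidec* averaged 0.291 FPKM in Control and 0.270 FPKM in KSPAPN. *Cfd* averaged 0.724 FPKM in Control and 1.01 FPKM in KSPAPN (log2 fold change 0.46, SE 0.45). *Fabp4*, which endothelial cells also express, was also higher in KSPAPN, at 8.02 ± 0.385 and 10.1 ± 1.93 FPKM without overlap (log2 fold change 0.34, SE 0.13, edgeR adjusted p = 0.209). Of the 6 adipocyte markers tested, 0 passed. Proximal tubule markers summed to 2212 to 2663 FPKM in Control and 1899 to 1977 in KSPAPN, and 2 of 8 fell, the transporters *Slc22a6* (-0.46, SE 0.10, edgeR adjusted p = 0.0388) and *Slc7a13* (-1.46, SE 0.28, edgeR adjusted p = 0.0259). Of 8 distal nephron and medulla markers, 1 rose, *Slc12a1* (0.52, SE 0.11, edgeR adjusted p = 0.0437). Their sums overlapped, at 1360 to 1565 FPKM in Control and 1318 to 1872 in KSPAPN. The highest sum was that of KSPAPN replicate 1, which was also the lowest pool for *Lpl* and *Angptl7*. Hepatocyte markers summed to 71.9 to 149 FPKM in Control and 43.8 to 69.5 in KSPAPN, and nearly all of these sums was *Ttr*, at 114 ± 39.7 and 50.7 ± 12.6 FPKM. *Ttr* was the 1 of the 4 tested that passed, and it was lower, whereas *Alb*, which defines hepatocytes, was at 2.05 ± 0.791 and 3.04 ± 2.40 FPKM and did not pass (log2 fold change 0.55, SE 0.68). Fibroblast and pericyte markers summed to 19.4 to 34.6 and 23.2 to 42.3 FPKM, podocyte markers to 38.7 to 58.9 and 54.6 to 75.9, and macrophage markers to 38.0 to 40.9 and 33.2 to 50.3, and none of these 3 lists had a gene past the adjusted threshold. The part of these cell types in the values of *Angptl7*, *Lpl* and *Lmf1* was not tested.

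The genes whose log2 CPM followed each of 3 members most closely over the 6 libraries were taken from 11161 protein-coding genes, as a description of 6 points that share their groups, pools and depth. For *Angptl7* the closest 2 were *Vstm5* (Pearson r = 0.995) and *Akr1d1* (0.993). Their own log2 fold changes were small beside that of *Angptl7*, at -0.30 and -0.52. For *Lpl* they were *Cnot9* (r = 0.996), *Aamdc* (0.988) and *Tfpi2* (0.987). For *Angptl4* they were *Intu* (r = 0.965), *Slc37a4* (0.961) and *Cfi* (0.959), with log2 fold changes between -0.02 and 0.06.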

How the data were processed

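Whole kidneys of Control and KSPAPN mice were sequenced in 6 libraries, 3 per group. mRNA was selected on oligo(dT) beads, and the authors deposited 1 table that holds whole-number read counts and FPKM of each gene. The submitters' processing notes name STAR 2.5, TopHat, HTSeq 0.6.1, DESeq2 and edgeR without their roles. Genome build, annotation and strandedness: not given in the sources used here. Levels and ratios used the FPKM as the authors scaled them, by gene length and depth. Identifiers were matched to GENCODE M21 (54495 of 54532).

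The deposited counts were tested with edgeR 4.0.16 in R 4.3.3 (TMM, filter with minimum count 10 and minimum total 15, quasi-likelihood test, two-sided, Benjamini-Hochberg adjustment over 16017 genes). Each library had at least 99.83% of its counts on genes tested. Alternatives were DESeq2 1.42.0, RLE factors, total counts only, no filter, limma 3.58.1 on log2(FPKM + 1) and log2(FPKM + 0.1), each library left out, a block for the replicate number, and a GC content and length trend removed, which was chosen after seeing the data. Ratios were compared with exact permutation tests over 20 arrangements. The methods were tested on simulated data. Intervals and limits from counts cover counting error only. The p-values set the difference between groups against the spread between pools. For that spread edgeR draws partly on a trend over all genes, and without the filter wholly.

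The members and lists were chosen with earlier results of these data known. Genes are named where they are members, belong to the angiopoietin-like family, host or overlap a member, pass the adjusted threshold in a list, or are among the 3 most like *Angptl7*, *Lpl* or *Angptl4*. Others were named after their values were seen, and the marker and receptor lists are named as their lists. Some genes of these lists and matches enter the counts and medians but are not reported here by name.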

Additional observations from a re-analysis of the deposited data

How the results depend on the processing

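With edgeR 63 of all genes tested were higher and 361 lower. These counts were 178 and 746 with DESeq2, 301 and 1038 without the filter, 10 and 118 with limma on log2(FPKM + 1), 10 and 109 on log2(FPKM + 0.1), and 5 to 162 and 34 to 571 with 1 library left out. Total counts only left 195 lower, and removing the GC and length trend gave 100 higher. Of the 6 members, 0 were lower with edgeR, 1 with DESeq2, 2 without the filter (*Lpl*, *Lmf1*), and 0 to 1 with 1 library left out. In the 5 wider lists the 2 lower became 6 with DESeq2 and 10 without the filter, and the 1 higher became 2 without the filter, 0 with either limma fit or the GC and length trend removed, and 0 to 1 with 1 library left out. The deviations of same-numbered libraries correlated at 0.0537, 0.154 and 0.173, and each library correlated best with its own number. The other pairs lay between -0.182 and 0.0211. Whether the replicate numbers pair the libraries was not settled by these weak correlations. With the replicate block, 224 of all genes were higher and 705 lower, 6 of the wider lists were lower, and *Lpl* and *Lmf1* (2 of 6 members) were called, with adjusted p of 0.0310 and 0.0281. The *Angptl2* log2 fold change turned to 0.056 with total counts only, 0.0019 with the replicate block and 0.076 with the trend removed, and ranged from -0.20 to 0.12 with 1 library left out, that of *Angptl4* from -0.37 to 0.15 and that of *Angptl8* from -0.46 to 0.16 (0.060 with the trend removed). The log2 *Lpl* to *Gpihbp1* ratio ranged from -0.61 to 0.047. *Angptl7*, *Angptl6*, *Lpl*, *Gpihbp1* and *Lmf1* were lower in KSPAPN in all 14 alternatives. Without the filter, edgeR's prior degrees of freedom were infinite (6.4 with it), so each gene took the spread of the trend over all genes in place of its own, and the calls of that fit carry this doubt. The causes of the other shifts were not tested. The pools limit precision for *Angptl6* and *Angptl1*, with few counts.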
